A study of Mus musculus with 12 samples.

Results

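The genes described here encode the Wnt ligands, their Frizzled receptors and 2 groups of secreted Wnt antagonists: 19 Wnt genes, 10 Fzd genes, 4 Sfrp genes and 3 Dkk genes, 36 in all. A CpG belonged to them when it lay in the gene body or up to 2000 bp upstream and had at least 10 reads in at least 9 of the 12 animals. In all, 6233 CpGs in 35 of the 36 genes met this rule, of 1697482 CpGs over the autosomes and chromosome X. Wnt16 had none. CpGs were counted on each DNA strand separately. Of the 6233, 3623 lay in Wnt genes, 2172 in Fzd genes, 326 in Sfrp genes and 112 in Dkk genes.

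DNA came from brain dissections that mixed dorsal hippocampus and cortex, from mice labelled as 11 months old and given no treatment in the labels. There were 4 wild type (Wt) mice, labelled as 3 females and 1 male, and 8 Tg2576 (Tg) mice, 4 females and 4 males. Tg2576 mice carry a transgene for human APP with the Swedish mutation, driven by a prion protein promoter, and no other allele or agent was given for either group. Because the tissue was a mixture of regions and cell types, a level is an average over all of them, and a change in cell makeup cannot be told apart from a change of methylation within cells.

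Wnt proteins are lipid-modified secreted ligands that bind Frizzled receptors, 7-pass membrane proteins, together with a co-receptor. In the canonical branch this binding stops the degradation of β-catenin, which then activates target genes with TCF and LEF factors. Sfrp proteins bind Wnts outside the cell, and Dkk1 and Dkk2 bind the co-receptors Lrp5 and Lrp6. In the brain the pathway is known for patterning of the embryonic forebrain and for synapse formation and maintenance. CpG-rich promoters of such developmental genes are usually free of methylation, whereas methylation of gene bodies is common in other genes.

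Total coverage per library ranged from 33619981 to 131446104 reads summed over CpGs. In the library labelled Wt male, the mean level of chromosome X was 19.9%, where Tg males had 5.50% to 5.67% and females 20.7% to 23.0%, and its Y coverage was also as low as that of the females. It was kept under its label, and where leaving it out ended a call of a feature named here, the value without it is given. Promoters of neuron markers were under 10% methylation for 9 of 10 genes, and all 4 oligodendrocyte promoters measured were under 10%, as were 2 of 3 astrocyte and both endothelial ones. Promoter methylation of this kind does not measure the share of a cell type, and no microglial marker promoter was measured. The single measured promoter of the list of genes used outside the brain was at 82.6%.

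Sequences are shown for an unmethylated promoter and for 5 partly or highly methylated stretches, because the contrast between them carries the pattern described in the following paragraphs. The stretches were chosen after their values were seen. Measured CpGs are in capitals, all other bases in lower case, and each is written 5′ to 3′ along the gene's own strand (mm10). The first is the 250 bases upstream of the outermost annotated start of Wnt5b, the lowest promoter of the Wnt group. The other 5 are stretches of neighbouring CpGs: coding exons of Wnt7a, Fzd7, Wnt10b and Wnt5a, and a region upstream of Wnt5a. The Wnt10b stretch is named by its main part and runs beyond the coding exon. Of its 17 CpGs with 10 reads in all 12 animals, 82.4% lay in coding sequence.
Wnt5b upstream, chr6:119544348-119544597, minus strand: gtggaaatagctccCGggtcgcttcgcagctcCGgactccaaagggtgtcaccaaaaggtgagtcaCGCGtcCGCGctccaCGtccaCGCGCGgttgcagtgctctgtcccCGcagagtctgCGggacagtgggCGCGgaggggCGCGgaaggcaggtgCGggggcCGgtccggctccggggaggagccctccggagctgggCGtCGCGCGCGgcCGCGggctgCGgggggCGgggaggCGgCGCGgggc
Wnt7a coding exon, chr6:91394478-91394554, minus strand: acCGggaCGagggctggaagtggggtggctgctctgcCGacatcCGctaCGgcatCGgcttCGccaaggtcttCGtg
Fzd7 coding exon, chr1:59484393-59484506, plus strand: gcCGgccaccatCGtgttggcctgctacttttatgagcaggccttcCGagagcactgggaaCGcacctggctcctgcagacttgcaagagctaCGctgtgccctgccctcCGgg
Wnt10b coding exon, chr15:98774087-98774331, minus strand: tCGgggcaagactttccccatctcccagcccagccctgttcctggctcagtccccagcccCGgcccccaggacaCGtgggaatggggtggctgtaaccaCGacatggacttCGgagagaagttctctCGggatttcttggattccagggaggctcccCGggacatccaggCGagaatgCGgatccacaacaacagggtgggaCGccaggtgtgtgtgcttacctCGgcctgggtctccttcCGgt
Wnt5a coding exon, chr14:28522664-28522717, plus strand: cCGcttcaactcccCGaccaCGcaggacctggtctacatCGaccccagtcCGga
Wnt5a upstream region, chr14:28503950-28504101, plus strand: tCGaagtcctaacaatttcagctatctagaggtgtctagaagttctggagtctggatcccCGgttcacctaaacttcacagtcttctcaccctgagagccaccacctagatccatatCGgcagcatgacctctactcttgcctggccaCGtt

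In the Wnt5b sequence 30 of 35 CpGs were measured, and their read-weighted levels over the 12 animals lay between 0% and 2.45%. Every CpG of the Wnt7a stretch was at 70.1% or above, and 4 of the 8 stood between 93.5% and 98.0% on both strands of the DNA.

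Promoters of these genes were almost free of methylation. Promoters covered the 1000 bp before and the 1000 bp after every annotated start, and a value needed at least 3 CpGs with 10 reads in all 12 animals, which 32 of the 36 genes had. All 32 had a median level over the animals under 10%, 23 were under 2% and 18 under 1%. The median over the 32 was 0.961%, beside 0.747% over all 13057 protein-coding promoters, of which 93.9% were under 10%. The low level is therefore shared with most promoters measured by this assay.

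Among the 16 Wnt promoters the medians ran from 0.534% for Wnt5b, a ligand known for non-canonical signalling, to 2.69% for Wnt10a, a canonical ligand of skin and tooth development. Wnt5b was at 0.477%, 1.09% and 0.769% in Wt females 1 to 3 and at 1.09% in the library labelled Wt male. In Tg animals it ran from 0.290% to 0.770%, with a median of 0.480%. The ranges of the groups overlapped. Wnt10a was at 1.84%, 4.08% and 1.87% in Wt females 1 to 3 and at 1.97% in the library labelled Wt male, and Tg animals ran from 1.06% to 11.8% with a median of 2.78%. A pair of Tg females, at 8.31% and 11.8%, stood above all the others.

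The 9 Frizzled promoters with a value ran from 0.449% for Fzd8 to 2.92% for Fzd6. Fzd8 was at 0%, 0.156% and 0.195% in Wt females 1 to 3, at 0.488% in the library labelled Wt male and from 0.264% to 2.39% in Tg animals. Fzd6 was between 1.75% and 3.88% in every animal. Among the Sfrp antagonists, Sfrp4 had a median of 0% and Sfrp2 the highest, 3.11%. In Wt animals no read of the Sfrp4 promoter was methylated, which with 2023 reads allows a level of up to 0.148%, counting error only. Tg animals ran from 0% to 1.07% there.

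The Dkk promoters ranged the widest. Dkk2 had a median of 0.744%, Dkk3 of 3.79% and Dkk1, the best known inhibitor of the Lrp5 and Lrp6 co-receptors, 6.13%. Dkk1 was at 3.52%, 5.55% and 9.06% in Wt females 1 to 3 and at 5.38% in the library labelled Wt male. Tg animals ran from 4.82% to 11.8% with a median of 7.21%, and the groups overlapped. At 6.13% it stood at the 92.1 percentile of all promoters. No CpG within the 250 bases upstream of the Dkk1 start was measured, so its value comes from the other CpGs of its 2000 bp window.

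**Figure D1:**
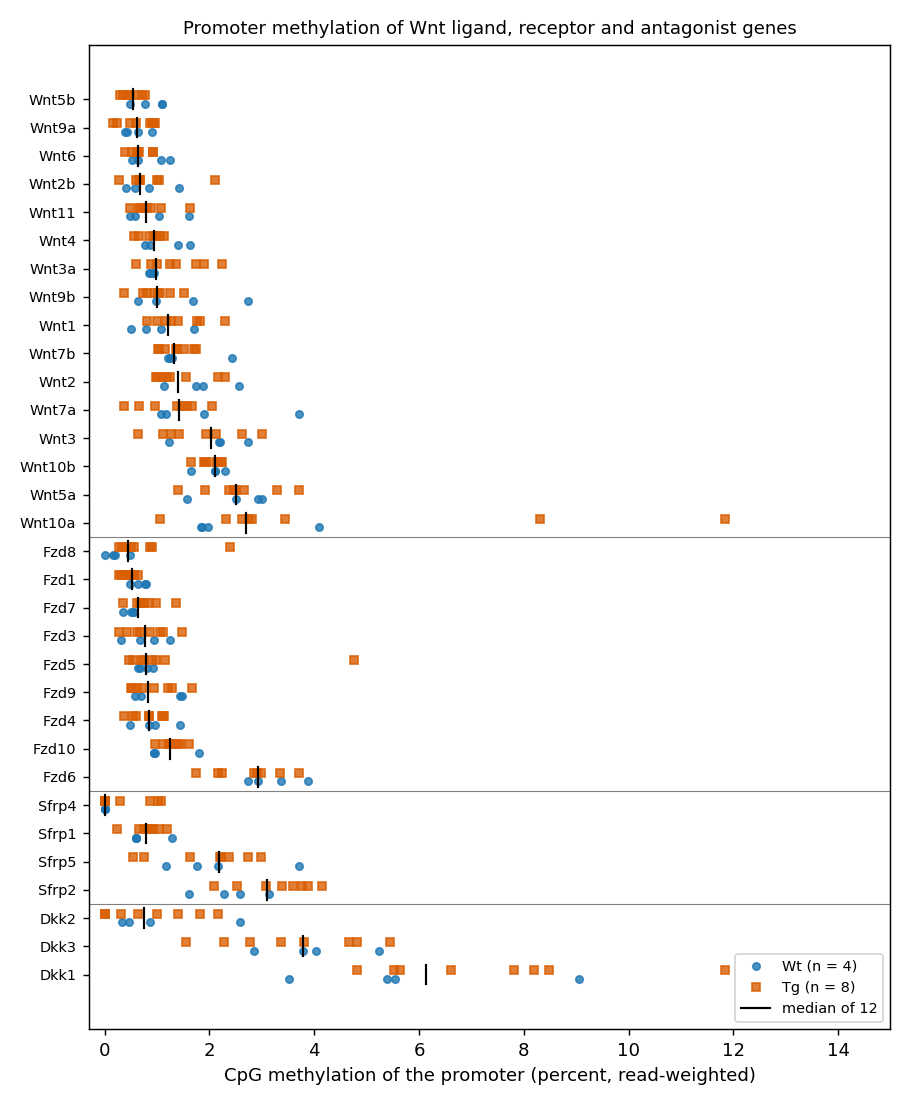
Methylation of 32 promoters (horizontal axis, percent of reads, linear scale) in each animal, grouped as Wnt, Fzd, Sfrp and Dkk genes. Blue circles are the 4 Wt animals, orange squares the 8 Tg animals and black bars the medians of all 12, which all lie between 0% and 6.13%.

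Wnt8a, Wnt8b, Wnt16 and Fzd2 had no promoter value. Fzd2 had 28 CpGs near its start in at least 9 animals, with a median of 1.03%. Wnt8b had no measured CpG there. Wnt8a, a ligand of the early embryo, was unlike the other members near its start: 4 CpGs in at least 9 animals, in untranslated exon sequence, were at 23.4%, 78.5%, 80% and 32.3%. These were covered by 10 to 38 reads per animal and are the only CpGs measured near that start.

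The RefSeq promoter table for GRCm38, the assembly of mm10, held 25 of the 36 genes, each with 250 bases before and 50 bases after the start. These sequences had a median of 29 CpGs, beside 8 over all 27025 genes of the table. The letters CCGG, the site cut in this type of library and the same on both strands, were in 23 of the 25 (92%) and in 54.3% of all genes. Wnt16 had 10 CpGs and no CCGG in its sequence. Dkk2 also had no CCGG there, with 11 CpGs, and it did have a promoter value.

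Away from the starts most CpGs of the Wnt and Fzd genes were also low, while most of the few in Sfrp1 and Dkk3 were not. Over 1000 bp from the gene's own starts the median was 1.80% for 1466 CpGs of Wnt genes and 2.31% for 755 of Fzd genes, against 59.2% for 21 of Sfrp and 64.95% for 14 of Dkk genes. The Sfrp CpGs were 11 of Sfrp1, with a median of 70.3%, and 10 of Sfrp2, with a median of 2.88%. All 14 Dkk CpGs were in Dkk3. Of 1823 CpGs over 1000 bp from any annotated start, 68.7% were under 10%, and the median level was 2.93%. Over all protein-coding genes the corresponding share was 37.3% of 332590 CpGs, with a median of 29.0%. Over 50 other genes of the Wnt pathway it was 31.5% of 1739 CpGs, with a median of 36.5%. The gap was widest over 5000 bp from a start, where 58.9% of 740 CpGs of the 36 genes were under 10%, against 21.8% in all protein-coding genes and 6.31% in the other pathway genes. These are shares of CpGs, which lie in runs and are not independent, and are given as descriptions.

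**Figure D2:**
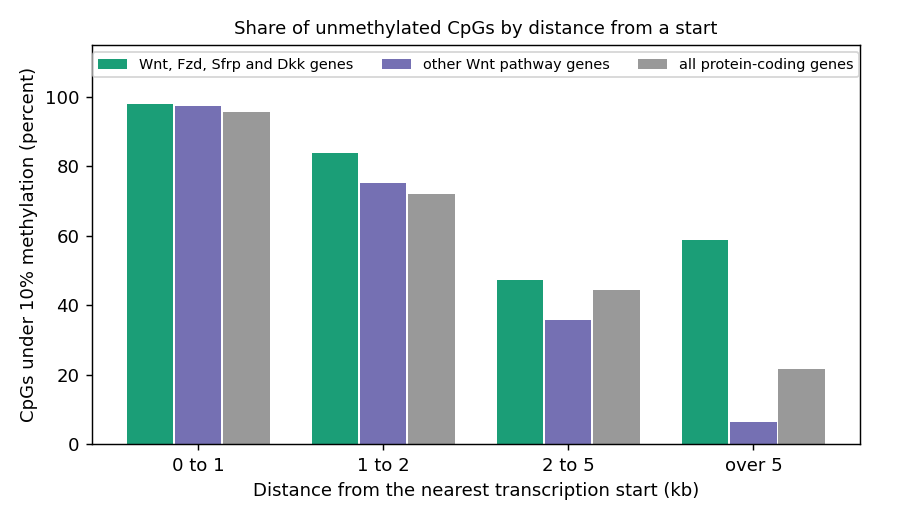
Share of CpGs with a read-weighted level under 10% (vertical axis, percent) by distance from the nearest transcription start (horizontal axis, kb). Bars are the Wnt, Fzd, Sfrp and Dkk genes, the other Wnt pathway genes and all protein-coding genes, and over 5 kb they stand at 58.9%, 6.31% and 21.8%.

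In each animal the CpGs over 1000 bp from any start were also lower in these genes. Over 1026 such CpGs with 10 reads in all 12 animals, the mean level was between 7.67% and 9.39%. In the same animals it was between 17.7% and 21.2% over all protein-coding genes. The share under 10% was between 78.2% and 82.3%, against 59.3% to 64.7% over all protein-coding genes. That gap was smaller than the 68.7% against 37.3% of CpGs with 10 reads in at least 9 animals.

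The unmethylated CpGs far from a start came from a few ligand genes. Over 5000 bp from any start, Wnt3 had 178 CpGs with a median of 0.759%, Wnt10a 110 with 1.89%, Wnt3a 83 with 2.79%, Wnt8b 81 with 2.05% and Wnt6 54 with 1.02%. Wnt3 and Wnt3a are canonical ligands of the embryo and the hippocampal primordium, and Wnt6 and Wnt10a are neighbours on chromosome 1. The 8 other ligand genes with at least 15 CpGs there were methylated: Wnt4 had a median of 93.9%, Wnt5a and Wnt7a 91.5% and 91.4%, Wnt11 85.5%, Wnt9b 70.7%, Wnt5b 56.0%, Wnt7b 51.7% and Wnt9a 40.4%, with between 15 and 35 CpGs each. Dkk3, a member of the Dkk group that does not bind the Lrp co-receptors, had 12 such CpGs with a median of 67.3%.

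Neighbouring CpGs with 10 reads in all 12 animals, at most 200 bp apart and at least 3 in number, were joined into stretches. There were 107 stretches in 34 of the genes. A stretch was placed in a promoter by the starts of its own gene only. Of 56 stretches in promoters, 54 were under 10%, and of 51 outside promoters, 34 were under 10%, 13 between 20% and 80% and 1 above 80%. The 8 stretches outside promoters with the most CpGs ranged from 37 to 165 CpGs, and 6 of them were under 2% in median. The longest run was 165 CpGs over 877 bp in an intron of Wnt5b, at 0.114% to 0.867% in the 12 animals. It spans the annotated start of another gene, Fbxl14, which lies inside that intron, so it lies at a promoter. A neighbouring Wnt5b run of 56 CpGs had its nearest edge 668 bp from that start, so part of it lies within 1000 bp of it. The other 49 stretches outside promoters were over 1000 bp from any start of another gene, and 32 of them were under 10%. The next longest run, 134 CpGs in an intron of Wnt3, was at 0.475% to 1.37%, and 129 CpGs in the coding exon of Fzd8 were at 0.126% to 1.59%. The 2 exceptions were coding exons of Frizzled genes, Fzd2 with a median of 8.16% and Fzd5 with 10.7%.

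Frizzled genes without introns in the coding region were unmethylated at the 5′ end and gained methylation toward the 3′ end. This was measured in Fzd1, Fzd2, Fzd5, Fzd7, Fzd8, Fzd9 and Fzd10, whose coding regions are 1710 to 2055 bp long. Each coding region was cut into 3 parts of equal length. The 5′ part, which encodes the extracellular Wnt-binding end of the receptor, had median levels between 0.363% and 1.60%. The 3′ part, which encodes the end of the membrane domain and the tail, had medians of 7.84% in Fzd1, 5.46% in Fzd2, 10.04% in Fzd5, 26.6% in Fzd7, 8.18% in Fzd8, 20.4% in Fzd9 and 12.3% in Fzd10. The 3′ part was higher than the 5′ part in every animal with a value for both, 12 animals for 6 of the genes and 11 for Fzd2. In Fzd7 its read-weighted level ran from 25.6% to 46.3% over the animals, against 0.158% to 1.35% in the 5′ part.

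**Figure D3:**
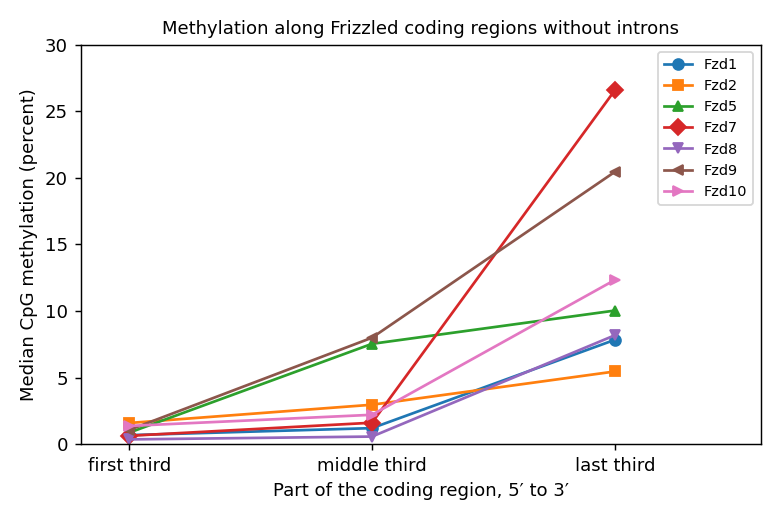
Median CpG methylation (vertical axis, percent, all animals' reads summed per CpG) in the 5′, middle and 3′ parts of 7 Frizzled coding regions without introns. Each line is 1 gene, and all 7 end higher than they begin, Fzd7 the highest at 26.6%.

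For comparison, 85 other protein-coding genes had a coding region of 1 exon of at least 1000 bp with at least 10 measured CpGs in both end parts. In 72 of them the 5′ part was under 10%. In these 72 the 3′ part was higher in 48 (66.7%), and the median levels were 0.909% in the 5′ and 1.47% in the 3′ part. The difference between the Frizzled genes and the others was not tested.

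Stretches with a median of 20% or more numbered 16, in 14 Wnt, Fzd and Sfrp genes, and 14 of the 16 were outside promoters. The highest was the Wnt7a coding exon shown among the sequences, 16811 bp from the start, at 89.1% to 91.8% in Wt animals and 85.7% to 95.2% in Tg animals. Wnt7a is a ligand known for synapse formation. A Wnt9b coding exon followed with a median of 76.6%, and the Wnt5a coding exon with 76.2%. Sfrp1 had the only such stretch of an antagonist, in an intron 3259 bp from its start, with a median of 59.9% and a range of 48.7% to 73.5%.

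**Figure D4:**
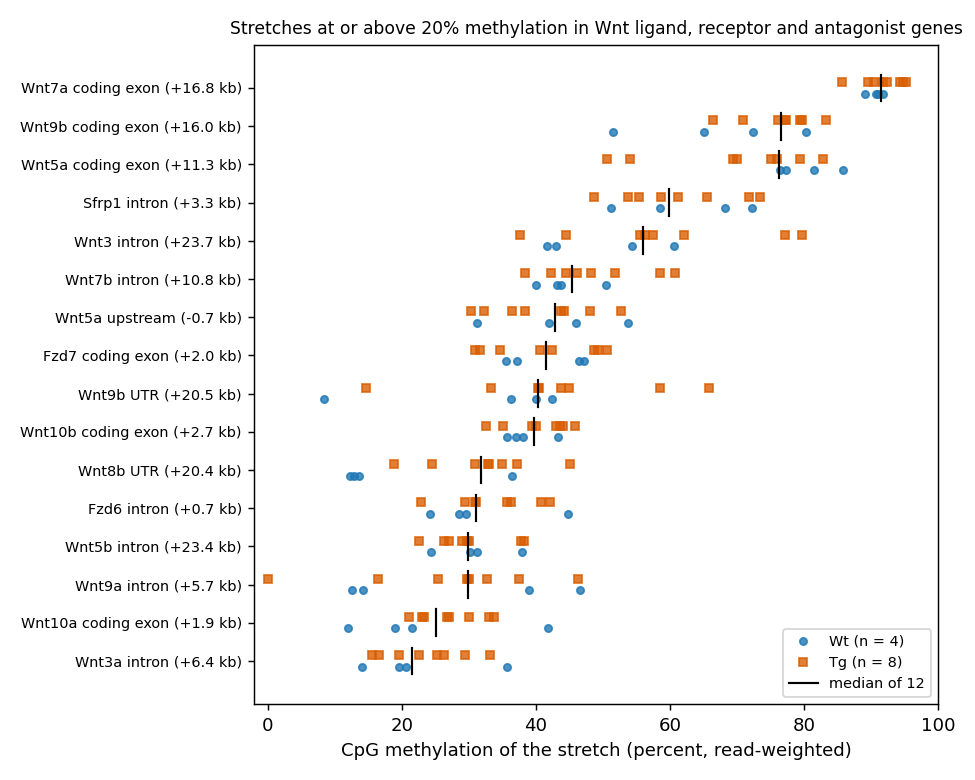
Methylation (horizontal axis, percent of reads) of the 16 stretches with a median of 20% or more, in each of 4 Wt (blue circles) and 8 Tg (orange squares) animals, with the distance from the gene's start in brackets. Black bars are medians of 12, from 91.4% in Wnt7a to 21.6% in Wnt3a, and Wt and Tg points overlap in every row.

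Within such stretches the level changed sharply between neighbouring CpGs. Numbered from 5′ in the sequence printed above, CpGs 3, 4 and 5 of Fzd7 were at 60.5% to 74.5% on the strands measured, while CpGs 1, 2 and 6 were at 8.33% to 16.4%. In Wnt10b, a canonical ligand that restrains fat cell formation, CpGs 8, 9 and 10 were at 56.8% to 78.2%, and CpGs 2 to 7, 11 and 12 at 15.8% to 30.4%. The drop from CpG 8 to CpG 7 was from 62.9% to 20.4% on 1 strand and from 56.8% to 16.4% on the other. CpG 7 of Wnt10b lies in a CCGG, the site cut in this type of library, as do its CpGs 2 and 12. In Fzd7 the low CpGs 1 and 6 also lie in a CCGG.

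CpGs inside CCGG read lower than the others of the same stretch. Of 16 stretches of these genes with a read-weighted level of 20% or more and CpGs of both kinds, 15 had a lower mean at CCGG, with a median difference of -19.6 points. The exception was the Wnt5a coding exon, at 78.3% against 73.4%. In Fzd7 the CCGG CpGs averaged 12.3% and the others 50.7%, and in Wnt10b 18.5% and 45.5%. Over all 9042 such stretches of the data, 84.0% had the lower mean at CCGG, with a median difference of -10.9 points. The part of the cutting and end-filling of fragments in this was not tested.

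The Wnt5a upstream region, 651 bp before the start, was 1 of 2 promoter stretches of 20% or more. Wnt5a is a non-canonical ligand known for axon and dendrite growth. The level was 53.7%, 45.9% and 41.9% in Wt females 1 to 3, 31.1% in the library labelled Wt male and 30.2% to 52.6% in Tg animals. The other was in the first intron of Fzd6, with a median of 31.0%. The promoters of Wnt5a and Fzd6 as a whole were at 2.50% and 2.92%.

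Animals differed most at partly methylated stretches with few CpGs. The 5 with the largest SD over the 12 animals had 3 to 5 CpGs each. A stretch in the untranslated exon of Wnt9b had an SD of 15.8 points, with 40%, 8.33% and 42.4% in Wt females 1 to 3, 36.3% in the library labelled Wt male and 14.6% to 65.9% in Tg animals, on 41 to 147 reads. An intron stretch of Wnt9a had an SD of 14.4 points, from 0% in 1 Tg female to 46.5% in the library labelled Wt male. The others were in an intron of Wnt3 (13.2 points), the untranslated exon of Wnt8b (11.0 points) and the coding exon of Wnt5a (10.9 points).

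Genotype was compared at promoters, stretches and single CpGs, to ask whether methylation of these genes differs between Tg and Wt brains. Each comparison used a logistic model with sex as a covariate, once with counting error only (binomial model) and once with the extra spread between animals added (overdispersion model). A call needed a Benjamini-Hochberg adjusted p under 0.1 over all features of the data and a difference of at least 10 percentage points in read-weighted level. Positive differences are higher in Tg. Without the library labelled Wt male no Wt male was left, so the model with sex compared Wt females with Tg females only. The difference in points then still used all Tg animals, so that p is not a test of it.

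No promoter of these genes was called in either model, where the share of all promoters called was 0.789% in the binomial and 0.0% in the overdispersion model. The largest difference was 1.61 points, at Wnt10a. Under the overdispersion model 3 of the 32 promoters had an unadjusted p under 0.05, and the smallest adjusted p was 0.709. Limma on logit levels, which also called none, gave 1 promoter an unadjusted p under 0.05. By direction 15 were higher and 17 lower in Tg.

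The promoter with the smallest p was that of Wnt3a, a canonical ligand needed for hippocampal development. It was at 0.930%, 0.847% and 0.857% in Wt females 1 to 3 and at 0.949% in the library labelled Wt male, and Tg animals ran from 0.588% to 2.24% with a median of 1.30%. Wt animals lay close together, and Tg animals lay on both sides of them. The means were 0.896% ± 0.0509 (SD, n = 4) and 1.37% ± 0.556 (SD, n = 8). The difference of 0.448 points had an unadjusted p of 0.00711 and an adjusted p of 0.709 in the overdispersion model.

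The Sfrp4 promoter followed, with no methylated read in Wt animals and a mean of 0.405% ± 0.492 (SD, n = 8) in Tg. Its adjusted p was 0.765 in the overdispersion model. Fzd7, Fzd8, Fzd1, Wnt5b, Wnt4 and Wnt2 completed the 8 with the smallest p. Fzd7 and Fzd8 differed by 0.279 and 0.562 points, and Fzd1, Wnt5b, Wnt4 and Wnt2 by -0.179, -0.280, -0.268 and -0.456 points, with adjusted p between 0.776 and 0.869 in the overdispersion model. Without Wt female 1 the Wnt4 and Wnt2 differences were -0.0907 and -0.240 points.

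Of the 107 stretches, 3 (2.80%) were called by the binomial model, beside 2.92% of all stretches. The share is near the background. The overdispersion model called none, as for 0.0% of all stretches, with a smallest adjusted p of 0.777. It gave 6 of the 107 (5.61%) an unadjusted p under 0.05, against 5.82% of all stretches, and limma gave 5. In no stretch of these genes did the ranges of Wt and Tg animals stay apart, which they did in 0.301% of all stretches. In all, 59 stretches were higher and 48 lower in Tg, and the median difference was 0.0691 points, beside 0.0564 points over all stretches.

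The 3 called stretches were among the 5 with the largest spread between animals. In the untranslated exon of Wnt8b (chr19:44513893-44513988, 4 CpGs, 40 to 334 reads per animal), Wt females 1 to 3 were at 13.6%, 36.4% and 12.9% and the library labelled Wt male at 12.3%. Tg animals ran from 18.9% to 45.0% with a median of 32.9%. Of the Wt animals 3 lay below every Tg animal and the other above 6 of the 8. Means were 18.8% ± 11.7 (SD, n = 4) and 32.2% ± 7.90 (SD, n = 8), and the read-weighted difference was 12.8 points. Wnt8b is a ligand of the developing forebrain. The unadjusted p in the overdispersion model was 0.0639, with an adjusted p of 0.853.

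In an intron of Wnt3 (chr11:103797826-103797897, 4 CpGs, 47 to 245 reads), Wt females 1 to 3 were at 60.6%, 41.7% and 43.0% and the library labelled Wt male at 54.3%, while Tg animals ran from 37.7% to 79.7% with a median of 56.9%. The Wt animals lay inside the Tg range. Means were 49.9% ± 9.11 (SD, n = 4) and 58.8% ± 14.4 (SD, n = 8), a difference of 8.89 points, which is under 10 points. The read-weighted difference was 11.6 points, with an adjusted p of 0.886 in the overdispersion model. It was 6.88 points without Tg female 1, 8.25 without Wt female 3 and 9.28 without Tg male 4, each below the size needed for a call. In the Wnt5a coding exon (5 CpGs, 70 to 229 reads) Wt females 1 to 3 were at 77.4%, 76.4% and 81.5% and the library labelled Wt male at 85.9%. Tg animals ran from 50.6% to 82.9% with a median of 72.6%. The difference was -10.1 points, with an adjusted p of 0.867 in the overdispersion model. Leaving out the library labelled Wt male gave -7.39 points, below the size needed for a call.

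**Figure D5:**
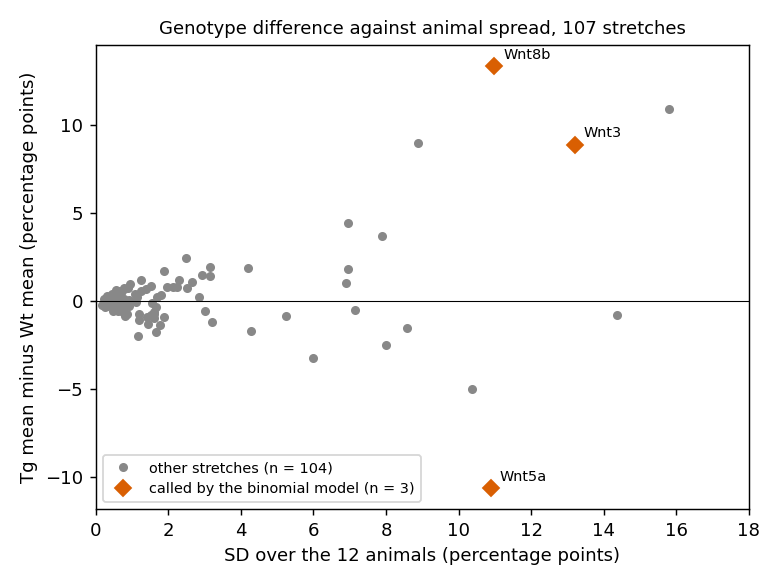
Difference between the Tg and Wt means (vertical axis, percentage points) against the SD over the 12 animals (horizontal axis, percentage points) for 107 stretches. Orange diamonds are the 3 called by the binomial model, Wnt8b, Wnt3 and Wnt5a, which lie where animals vary by 10.9 to 13.2 points, and grey circles are the other stretches.

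The stretches with the smallest p in the overdispersion model were mostly near 0%. First was an intron stretch of Wnt5a, 1495 bp from the start, with 25 CpGs. It was at 1.05%, 1.91% and 0.747% in Wt females 1 to 3 and 0.910% in the library labelled Wt male, and in Tg animals from 0.787% to 3.16% with a median of 1.90%. The 4 Tg females, between 2.42% and 3.16%, were above all others, and the 4 Tg males, between 0.787% and 1.38%, were within the Wt range. Its unadjusted p was 0.00555 and its adjusted p 0.777. A stretch of 27 CpGs in a coding exon of Wnt10a was at 7.41%, 4.31% and 4.61% in Wt females 1 to 3, at 4.14% in the library labelled Wt male and from 4.22% to 10.6% in Tg, a difference of 2.61 points. The other 6 of the 8, in Wnt5b (2 stretches), Sfrp4, Fzd7, Fzd6 and Wnt3a, differed by less than 2 points. One of the Wnt5b stretches, 8 CpGs in an intron, had 6.11% in the library labelled Wt male and 0% to 3.76% in the other animals, and its difference of -1.29 points was 0.119 points without that library.

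At single CpGs the binomial model called 131 of 6233 (2.10%), 74 higher and 57 lower in Tg, in 29 genes. Over all CpGs it called 4.39%, of which 2.39% were higher and 2.0% lower. The share depends on the level, since a CpG near 0% can hardly differ by 10 points. Among CpGs between 10% and 90% it was 109 of 567 (19.2%) in these genes and 20.3% in all. The overdispersion model called none, as for 0.0% of all CpGs, with a smallest adjusted p of 0.512 and an unadjusted p under 0.05 at 658 CpGs (10.6%, against 9.42% of all).

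Of the 131 called CpGs, 84 had the cytosine on the opposite strand tested too. The opposite strand differed in the same direction at 37 of these 84, and by at least 10 points in the same direction at 6. Without the library labelled Wt male, where the p compares females only, 66 of the 131 were still called. By gene, Wnt10b had 12 calls, Wnt7b and Wnt9b 10 each, and Wnt9a, Wnt10a and Fzd5 8 each, in both directions in each of these genes.

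At 8 CpGs the Wt range lay wholly outside the Tg range (0.128%), against 0.248% of all CpGs, and 4 of the 8 were called. All 4 lay in coding exons. At Fzd5 (chr1:64735117) Wt females 1 to 3 were at 31.2%, 22.2% and 22.2% and the library labelled Wt male at 44%, and 7 Tg animals were between 0% and 20%. Without the library labelled Wt male the difference over the animals left was -18.8 points. The call was then lost, with an adjusted p of 0.216 between Wt and Tg females in the binomial model. With that library the difference was -23.5 points on 10 to 44 reads per animal, and the opposite strand differed by 5.83 points. At Wnt5a (chr14:28522703, CpG 4 of the printed stretch) Wt females 1 to 3 were at 42.9%, 36.4% and 38.5%, the library labelled Wt male at 37.5% and 5 Tg animals between 68.2% and 77.8%. The difference was 32.8 points, whereas the opposite strand of the same CpG differed by -15.1 points and the stretch as a whole by -10.1 points.

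At Fzd8 (chr18:9214851) Wt animals were between 33.3% and 57.1% and 5 Tg animals between 0% and 28.6%, a difference of -32.6 points, with -2.30 points on the opposite strand. At Wnt8b (chr19:44511370) 3 Wt animals were between 0% and 3.03% and 7 Tg animals between 6.90% and 52.4%, a difference of 18.2 points, with 0.0438 points on the opposite strand. In these 4 CpGs the 2 strands thus differed in size, and at Fzd5 and Wnt5a in direction.

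Of the 10 named CpGs, those of Wnt4, Wnt7b and Wnt5b (chr6:119524200) had no test on the opposite strand. Among the rest, Wnt10b (chr15:98774128, CpG 10 of the printed stretch) was the only one where both strands differed by at least 10 points in the same direction. It was at 60%, 50% and 65.6% in Wt females 1 to 3 and 72.2% in the library labelled Wt male, on 12 to 80 reads per animal. Tg animals were between 65.7% and 100%, and 7 of the 8 lay above every Wt animal. Means were 62.0% ± 9.41 (SD, n = 4) and 85.4% ± 10.7 (SD, n = 8). The difference was 22.4 points, 24.4 points without the library labelled Wt male and 11.0 points on the opposite strand. Its unadjusted p in the overdispersion model was 0.00907, and the adjusted p was 0.512. The whole Wnt10b stretch differed by 1.33 points.

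The other 5 named CpGs were those with the smallest p in the overdispersion model among the calls. An intron CpG of Wnt5b (chr6:119524200) was at 100% in all animals with a value except the library labelled Wt male, at 57.1%, and the difference of 20.7 points was 0 without it. A second Wnt5b CpG (chr6:119532344) was at 100% in every female with a value and in the library labelled Wt male, and between 73.3% and 83.3% in the 4 Tg males. Without that library the call was lost, since the model then compared only females, all at 100%. The difference over all animals left, Tg males included, was still -13.4 points. At Wnt3a (chr11:59290412) the Wt values were 0%, 22.6% and 4.76%, and none of the Tg reads was methylated. The difference of -10.6 points was -3.70 without Wt female 3, and the call was lost. At Wnt4 (chr4:137295466) all 4 Wt animals were at 100% and 3 of 6 Tg animals below. At Wnt7b (chr15:85560021) Wt animals were between 7.69% and 57.1% and Tg animals between 37.5% and 83.3%.

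Sex was compared within the Tg group, 4 females against 4 males. The binomial model called 1 of 107 stretches, against 4.55% of autosomal stretches, and the overdispersion model none, against 0.0%, with a smallest adjusted p of 0.883 and an unadjusted p under 0.05 at 4 stretches. The call was the untranslated exon of Wnt9b, where males were 13.6 points lower: females were at 58.5%, 40.3%, 40.4% and 65.9% and males at 14.6%, 44.9%, 43.7% and 33.3%. The sexes overlapped. Without Tg male 1 the difference was -9.85 points and without Tg female 1 it was -7.98 points, both below the size needed for a call.

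The 3 stretches with the smallest p for sex were the Wnt5a intron stretch described for genotype, a stretch upstream of Fzd3 and the printed Wnt10b stretch. The Wnt5a stretch was at 2.73% ± 0.360 (SD, n = 4) in Tg females and 1.05% ± 0.244 (SD, n = 4) in Tg males, with no overlap. The Fzd3 stretch was at 0% in all 4 females and at 0%, 1.04%, 1.33% and 5.03% in the males. The Wnt10b stretch was at 45.8%, 43.6%, 43.0% and 40% in females and 44%, 35.1%, 39.4% and 32.5% in males, a difference of -7.59 points. None had an adjusted p under 0.883 in the overdispersion model.

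The 50 other genes of the Wnt pathway, among them co-receptors, Dishevelled proteins, the β-catenin destruction complex and TCF and LEF factors, gave 7564 CpGs. The binomial model called 259 (3.42%), 160 higher and 99 lower in Tg, and the overdispersion model called none. Over all CpGs the binomial model called 4.39%, of which 2.39% were higher and 2.0% lower, and the overdispersion model 0.0%. Of 138 stretches, 4 (2.90%) were called by the binomial model, in Lef1, Dvl2, Axin2 and Ror2, beside 2.92% of all stretches. The overdispersion model called none, as for 0.0% of all stretches, and gave 10 an unadjusted p under 0.05. Without the library labelled Wt male, 2 of the 4 calls were lost. Dvl2 went from 10.4 to 8.54 points, and the Ror2 intron stretch from 16.2 to 7.35 points. The adjusted p of that Ror2 stretch was then 0.155 between Wt and Tg females in the binomial model. The smallest p was at a stretch in the promoter of Ror2, a receptor for Wnt5a. Wt females 1 to 3 were at 19.2%, 21.005% and 24.4%, the library labelled Wt male at 13.1% and Tg animals between 21.4% and 40.6%. The difference was 8.74 points, 7.04 points without the library labelled Wt male, with an unadjusted p of 0.00121 and an adjusted p of 0.682. The next smallest p were at Wif1 and Lrp6, at -1.03 and -1.77 points, and at Lgr5 and Dvl2, at 1.95 and 10.4 points, with adjusted p between 0.721 and 0.816. The Wif1 difference was 0.171 points without the library labelled Wt male. Of 44 promoters of these genes, 42 were under 10%.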

How the data were processed

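Reduced representation bisulfite sequencing was done on DNA of 12 mouse brains, 1 library per animal. As described by the authors, reads were sequenced in pairs on a HiSeq 2000, aligned to mm10 with Bismark, passed through the Bismark Methylation Extractor and read into methylKit, with versions not given in the sources used here. The deposited files hold, for each cytosine of a CpG, the counts of all reads, methylated reads and converted reads, unnormalized, with strands apart and at least 10 reads per site. Groups, sex and age came from the labels. Positions repeated within a file (22 rows) were left out.

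CpGs were assigned to genes with GENCODE vM21 basic. The 36 genes, the pathway and marker lists and the tests were chosen with earlier results of these data known. Levels are methylated reads over all reads. Genotype was tested by logistic regression with sex as a covariate (numpy 2.4.6, scipy 1.17.1), as a likelihood ratio test and as an F test with a dispersion of at least 1, at CpGs with 10 reads in at least 9 animals and 2 Wt animals, and at stretches and promoters of CpGs with 10 reads in all 12. Limma 3.58.1 on logit levels (pseudocount 1 read) was an alternative. The scripts were tested on simulated data. P-values were adjusted by Benjamini-Hochberg over all features of the data. Named were the lowest and highest promoter of each family, the 8 largest stretches outside promoters, 10 called CpGs (those with ranges apart first, then by p), the 8 stretches and 8 promoters with the smallest p for genotype, 3 stretches for sex, the 5 with the largest SD, and 5 of the pathway list. Other named stretches and the sequences were chosen after their values were seen. Counts per CpG limit precision, and intervals cover counting error only, since reads of one molecule cannot be told from copies. The smallest library had 33619981 reads summed over CpGs and the largest 131446104. One promoter sequence is not reported here.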

Additional observations from a re-analysis of the deposited data

Results flagged for a closer look

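Groups of 4 to 8 animals were checked for the named stretches, promoters and single CpGs. In 6 of 92 groups 1 animal lay far from the rest of its group by Dixon's criterion, which chance meets in about 1 group in 20. That rate is for groups not chosen by their values. These features were chosen by their values and some overlap, so the 6 of 92 cannot be set against it. In Wt animals these were Wnt8b, in the untranslated exon, with 36.4% in Wt female 2 against 12.3% to 13.6% in the others, the Wnt10a coding exon with 7.41% in Wt female 1 against 4.14% to 4.61%, and the Wnt10a promoter with 4.08% in Wt female 2 against 1.84% to 1.97%. In Tg animals they were the Wnt5b intron stretch with 3.76% in Tg male 3 against 0% to 1.37%, the Wnt3a promoter stretch with 3.47% in Tg female 2 against 0.800% to 1.41%, and the Fzd8 promoter with 2.39% in Tg female 2 against 0.264% to 0.910%. Wt female 2 and Tg female 2 were each the outlying animal in 2 of the 6.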

How the results depend on the processing

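Under the overdispersion model no CpG, stretch or promoter of these genes was called under any alternative run, and no promoter was called under the binomial model. The binomial count of CpGs, 131, was 306 with a difference of 5 points, 34 with at least 20 reads, 35 for CpGs covered in all 12 animals and 76 with both strands summed. It ran from 116 to 164 when each animal was left out. The 3 called stretches became 7 with a difference of 5 points, 5 with CpGs covered in at least 9 animals and 0 with at least 20 reads, where no stretch formed at the 3 places. Leaving out each animal gave 2 to 5 stretches, with 5 without Wt female 1. The 1 stretch called for sex became 0 under the overdispersion model and 0 to 2 when each animal was left out: 0 without Tg male 1, and 2 without Tg male 3, Tg male 4, Tg female 2, Tg female 3 or Tg female 4. The median promoter level of 0.961% was 1.19% with CpGs covered in at least 9 animals and 1.49% with 2000 bp either side of a start, and 0.946% to 0.976% when each animal was left out. The Wnt5b intron stretch at -1.29 points was 0.460 points with at least 20 reads, and from -2.02 to 0.119 points when each animal was left out, positive without the library labelled Wt male. The Wnt2 promoter was 0.260 points higher in Tg with at least 20 reads. The cause of these changes was not tested. No paired analysis was made, because each library came from a different animal and the labels give no pairing of Wt with Tg animals. The 4 Wt animals limit what could be called.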
